A study of Sus scrofa with 12 samples.

Results

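The solute carriers are the genes whose symbols begin with SLC and a digit, and they were followed here in pig skeletal muscle over the first 3 weeks after birth. Members were all probe sets whose single gene symbol has that form, without SLC2A4 and SLC6A8, and each gene was represented by its probe set with the highest mean log2 signal over all arrays. A probe set is a group of short probes on the array that reads a single transcript. This gave 118 genes, read by 172 probe sets, of the 6765 genes with a single symbol on the array. Of these, 80 passed a filter that left out the dimmest 40% of all probe sets by mean log2 signal over the 12 arrays (a limit at a signal of 90.3), and the means of 38 lay below it. The 12 Affymetrix arrays held total RNA from skeletal muscle (Sus scrofa) at day 0 (the first 24 hours of life), day 7, day 14 and day 21, with 3 biological replicates per age. No treatment or genetic change is described in the labels, and breed, sex and the muscle sampled are not given in the sources used here. The sampling asks which genes change over these ages, and in which week.

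Solute carriers are membrane proteins that move small molecules and ions across the cell surface and the membranes of organelles, along a gradient or coupled to the movement of another ion. In muscle they bring in glucose, amino acids, carnitine and fatty acids, let lactate out, and exchange nucleotides, phosphate and fuel intermediates across the inner mitochondrial membrane. At birth the supply of fuel switches from the placenta to milk, and muscle fibres then grow and specialise over the following weeks.

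Members were sorted by substrate into sugars and sugar phosphates (14 genes, 11 tested), amino acids and peptides (19 and 10), monocarboxylates (2 and 2), fatty acids and bile acids (3 and 1) and amines and choline-like substrates (3 and 1). The other classes were mitochondrial carriers of the SLC25 family (21 and 19), metal ions (13 and 11), inorganic ions (14 and 5), nucleosides and nucleotide sugars (13 and 10), vitamins and cofactors (8 and 4) and organic ions (5 and 3). A last class of 3 genes holds proteins that carry an SLC symbol but are not transporters, namely SLC2A4RG, a transcription factor, and the scaffold proteins SLC9A3R1 and SLC9A3R2. The carriers SLC16A1, SLC7A5, SLC38A2, SLC6A6, SLC12A2, SLC20A1, SLC8A3, SLC30A1 and SLC40A1 carry no symbol in the probe table and were not analysed here.

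Every array had the same trimmed mean signal of 500.1, and array medians ran from 146.2 to 172.6. The number of arrays limits the precision. The day 0 arrays differed from the others in their control probe sets. The hybridization controls, which are added in fixed amount, had a mean log2 signal of 12.09 to 12.26 at day 0 and 12.40 to 12.79 later. For the spiked poly-A RNAs, the log2 signal of 3' over 5' probe sets ran from 0.66 to 1.59 at day 0, highest in replicate 2, and from 0.37 to 0.67 later. Of 13 markers of skeletal muscle 11 were on the array, and the means of all 11 lay above the limit. Their summed signal was 240872 to 344541 at day 0, 364019 to 409941 at day 7, 413819 to 441618 at day 14 and 404896 to 510061 at day 21. The members did not all move alike. In the first week 2 rose and 1 fell, beside 5.76% and 3.64% of all probe sets, and over the 3 weeks 6 rose and 0 fell. MYH2 read 5402.5, 6748 and 15661 at day 0 and 51913, 49704 and 43922 at day 7, while DES read 18781, 26528 and 23379.5 and then 16903, 16847 and 14919. Some markers of other cells moved with age as well, and others did not. Of 7 fibroblast and 2 Schwann cell and nerve markers tested, 0 were called in the F test or between day 0 and day 21. Over the 3 weeks 1 of 7 macrophage and 1 of 2 lymphocyte markers rose, and of 4 erythroid markers 2 rose and 1 fell. Over all probe sets 6.61% rose and 4.9% fell. The sum over 5 of 7 markers of smooth muscle and pericytes was 11718 to 14272 at day 0, 25508 to 26649 at day 7, 18708 to 26085 at day 14 and 16784 to 20457 at day 21. For 10 of 11 endothelial markers it was 5886 to 6758, 9728 to 10908, 9591 to 10475 and 7207 to 10731 in the same order. In the first week 3 of the 5 smooth muscle and pericyte markers tested rose, and 4 of the 10 endothelial markers rose and 1 fell. For 7 of 9 adipocyte markers the sum was 4629 to 9370, 13856 to 15152, 12230 to 18702 and 15533 to 18808. Of the 5 of these that were tested, 1 was called, GPD1, an enzyme that muscle fibres also make. GPD1 read 1067, 1118 and 4639.8 at day 0 and 14675, 10716 and 13640.4 at day 21, while SCD read 705, 494 and 1481 and 390.0, 478 and 365, so the sum did not show adipocyte markers moving together. The part of these cells and of the control measures in the changes below was not tested, and in whole tissue fewer cells of a type and less RNA per cell cannot be told apart.

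Values below are array signals, and each change is the difference between the mean log2 signals of a pair of ages, ± SE from limma with n = 3 arrays per age. A gene rose or fell where its p, adjusted by Benjamini-Hochberg over all 14399 probe sets tested, was under 0.05. Over the 4 ages 6 of the 80 tested carriers (7.5%) changed in limma's F test, against 8.88% of all probe sets tested. Between day 0 and day 21, 5 carriers rose and 4 fell (6.25% and 5%), beside 6.61% and 4.9% of all probe sets. The 5 that rose include SLC2A4RG, which is no transporter. In the first week 2 rose and 1 fell (2.5% and 1.25%), beside 5.76% and 3.64% of all. The shares among the carriers thus lay near those of the array as a whole, except for fewer calls in the first week, and this difference was not tested. The median change of the carriers was 0.00 between day 0 and day 21, with 40 higher and 40 lower, and 0.02 over all probe sets. Both comparisons use the same day 0 arrays.

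The direction of these counts depended on how the arrays were scaled. With each array centred on its median, 3 carriers rose and 6 fell between day 0 and day 21, and 2 rose and 3 fell in the first week. Scaled on the hybridization controls, 2 rose and 15 fell over the 3 weeks and 1 rose and 7 fell in the first, since the median change of the carriers then went to -0.38 and -0.28. The same scaling turned the calls over all probe sets between day 0 and day 21 from 952 higher and 705 lower to 397 higher and 2486 lower. With the poly-A ratio as a covariate, 0 carriers passed the F test or the first week. Over the 3 weeks SLC37A4, SLC25A33, SLC2A12, SLC35A4 and SLC44A2 still passed with it. SLC25A5 and SLC7A1 passed with this covariate though not without it. The ratio was 0.66 to 1.59 at day 0 and 0.37 to 0.67 later, so the covariate and day 0 cannot be fully told apart. Calls over all probe sets are not set beside the median centring and poly-A counts here.

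**Figure D1:**
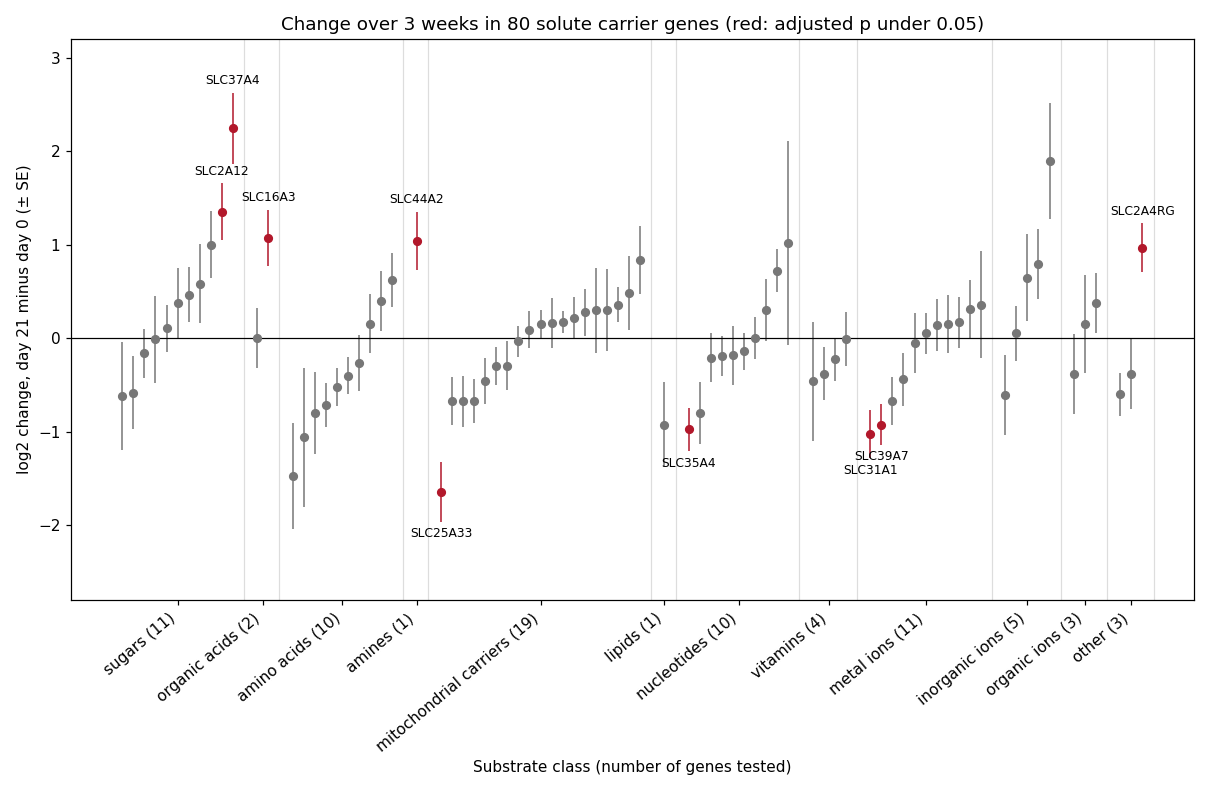
Log2 change from day 0 to day 21 (y axis, ± SE) for the 80 tested solute carrier genes, sorted within substrate class (x axis, number of genes in brackets). The 9 genes in red passed an adjusted p of 0.05, and SLC37A4 at 2.24 and SLC25A33 at -1.64 lie farthest from 0 among them.

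Over the 4 ages 3 of 11 sugar carriers changed (27.3%), beside 8.88% of all probe sets. SLC37A4 and SLC2A12 rose between day 0 and day 21 (18.2%), beside 6.61% of all. SLC37A4 and SLC2A3 rose in the first week (18.2%), beside 5.76% of all. In both comparisons 0 fell. Whether the class differs from the array as a whole was not tested. The median change of the 11 was 0.37 over the 3 weeks, with 7 higher and 4 lower.

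SLC37A4 carries glucose-6-phosphate into the endoplasmic reticulum, where it can be split to free glucose. Its signals were 272, 438 and 812 at day 0, 2939, 2419 and 1568 at day 7, 1516, 3263 and 1632 at day 14 and 1849.8, 2188 and 2532 at day 21. All 9 later arrays stood above all 3 day 0 arrays, and the later ages overlapped each other. It rose by 2.28 ± 0.38 in the first week (limma adjusted p = 0.00414) and was 2.24 ± 0.38 above day 0 at day 21 (adjusted p = 0.00342), which is 4.73-fold. A second probe set of the gene rose by 1.89 ± 0.46 over the 3 weeks (adjusted p = 0.0191). The rise to day 21 passed in all 24 alternative settings, with adjusted p from 0.000625 to 0.0196. The first week's call ended with the poly-A ratio as a covariate (2.18, adjusted p = 0.0588), and so did the F test (adjusted p = 0.0835).

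SLC2A12 (GLUT12), a glucose transporter of the cell surface, gave 91.4, 133 and 179.5 at day 0, 187, 196 and 193 at day 7, 188, 371 and 226 at day 14 and 304, 306 and 392 at day 21. Day 0 lay below every later array and day 21 above every day 0 and day 7 array, while day 14 overlapped days 7 and 21. The gene rose by 1.35 ± 0.30 over the 3 weeks (limma adjusted p = 0.0126, 2.56-fold), and its first week's value was 0.57 ± 0.30 (adjusted p = 0.262). The day 21 call ended only without day 21 replicate 3 (1.23, adjusted p = 0.057). The F test (adjusted p = 0.0454) was lost in 17 settings, up to adjusted p = 0.145, among them the omission of any single array except day 0 replicate 3 and day 14 replicates 1 and 2.

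SLC2A3 (GLUT3), a glucose transporter of high affinity known from neurons and blood cells, behaved differently. It read 267, 264 and 228 at day 0, 352, 676 and 687 at day 7, 609, 549 and 679 at day 14 and 334, 506 and 248 at day 21. The day 7 and day 14 arrays all lay above day 0, and day 21 overlapped day 0. The gene rose by 1.12 ± 0.29 in the first week (limma adjusted p = 0.0324) and its change from day 14 to day 21 was -0.81, which did not pass. Day 21 minus day 0 was 0.46 ± 0.29 (adjusted p = 0.328). The first week's change minus the third week's, which share no arrays, was 1.93 ± 0.41 (adjusted p = 0.0488). SLC2A3 was the only carrier of the 80 to pass this test, beside 0.625% of all probe sets higher and 0.264% lower. The smooth muscle and pericyte sum was likewise higher at day 7 than at day 0 on every array and lower again at day 21 than at day 7. Its members did not move together. ACTA2 read 12941, 13532 and 13567 at day 7 and 7446, 7665 and 9496 at day 21, and CNN1 was lower at day 21 too. RGS5 read 4153, 5372 and 6404 at day 7 and 5114, 5738 and 5381 at day 21, and PDGFRB and TAGLN also overlapped between these ages. The endothelial sum stood above day 0 on every later array. The macrophage sum overlapped between all ages, at 1659 to 2088 on day 0 and 2071 to 2581 on day 7. The lymphocyte sum, mostly of markers below the limit, was 350 to 485 and 417 to 645 at these ages. The erythroid sum was 1691 to 2931 and then 1420 to 1639. The part of any of these cells in the SLC2A3 values was not tested. The first week's call ended without any single day 0 array or without day 7 replicate 2 or 3 (adjusted p from 0.0556 to 0.12) and when scaled on the hybridization controls (0.81, adjusted p = 0.134). The difference between weeks passed in 4 of 23 settings (adjusted p from 0.0374 to 0.212), and was lost without any single array other than day 0 replicate 3 and day 7 replicate 1. The F test (adjusted p = 0.036) was likewise lost without 9 of the 12 arrays taken singly (0.0566 to 0.0898), the exceptions being day 7 replicate 1 and day 21 replicates 2 and 3.

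The other sugar carriers did not pass. SLC2A1 (GLUT1), the widespread basal glucose transporter, read 303, 115 and 194 at day 0, 236, 299.7 and 244 at day 7, 247, 211 and 153 at day 14 and 81.5, 122 and 202 at day 21, with all ages overlapping day 0. Its value between day 7 and day 21 was -1.03, with an unadjusted limma p of 0.0188 that did not survive adjustment. SLC37A1, a relative of SLC37A4, read 64.5, 76.3 and 86.3 at day 0 and 165, 101 and 204 at day 21, and its change did not pass (adjusted p = 0.0882). All 3 of its day 0 arrays lay under the filter's limit, so it reached the tested set through its later values. SLC50A1, a sugar exporter, differed by 0.10 ± 0.25 and SLC5A4, a sodium-coupled relative of the intestinal glucose transporter, by -0.16 ± 0.26. SLC2A2, SLC2A5 and SLC5A1, known for glucose and fructose transport in liver, gut and kidney, had mean log2 signals below the limit and were not tested.

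**Figure D2:**
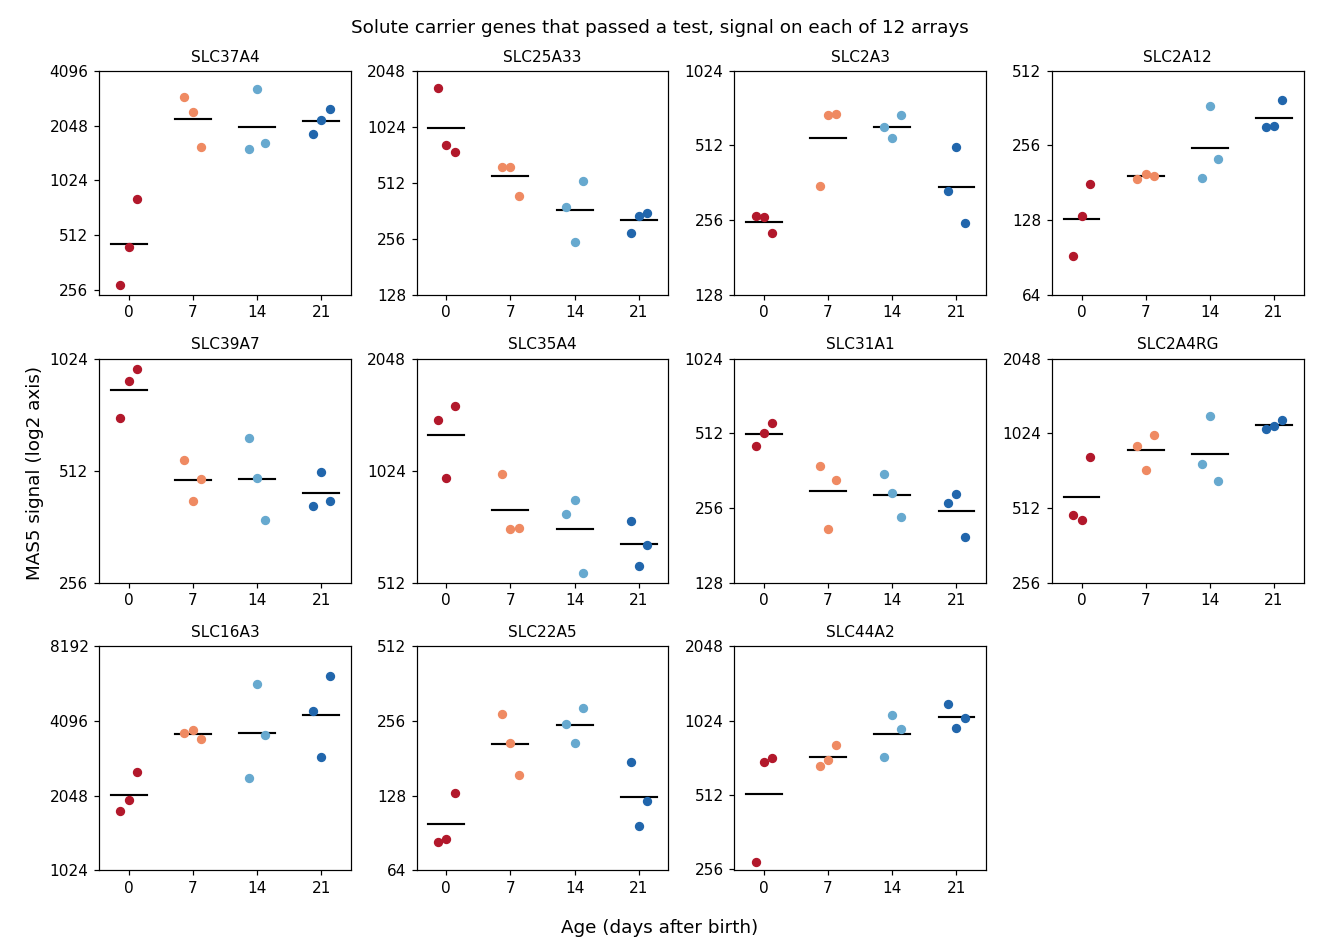
Array signals (y axis, log2 scale) at 4 ages (x axis, days after birth) for the 11 solute carrier genes that passed any test. Each point is 1 array and the bar is the mean of the log2 values of 3 arrays. SLC37A4, SLC2A12 and SLC16A3 are lowest at day 0, SLC25A33, SLC39A7, SLC35A4 and SLC31A1 are highest there, and SLC2A3 and SLC22A5 are high at days 7 and 14.

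SLC16A3 (MCT4), the lactate exporter of glycolytic muscle fibres, had signals of 1772, 1962 and 2542 at day 0, 3659, 3762 and 3473 at day 7, 2404, 5785 and 3592 at day 14 and 4499, 2932 and 6213 at day 21. Every day 7 and day 21 array lay above day 0, and day 14 replicate 1 lay inside the day 0 range. The gene rose by 1.07 ± 0.30 over the 3 weeks (limma adjusted p = 0.0361, 2.10-fold). This call passed in 13 of 24 settings and ended without day 0 replicate 1 or 2, day 7 replicate 2, or day 21 replicate 1 or 3 (adjusted p from 0.0515 to 0.147). On the hybridization controls' scale the rise was 0.69 (adjusted p = 0.0654). The call also ended with median centring, no variance trend, array weights, the poly-A ratio as a covariate and only the arrays compared. SLC16A13, a relative with a less certain substrate, read 112, 122 and 248 at day 0 and 185, 131 and 139 at day 21 and differed by 0.00 ± 0.33. BSG, the chaperone that brings SLC16A3 to the membrane, did not pass the F test (adjusted p = 0.0599). Its signals were lower on all later arrays (1329 to 1956) than at day 0 (2156 to 2799), the opposite direction to SLC16A3.

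Carriers of fatty acids and carnitine gave a single call. SLC22A5 (OCTN2), the sodium-coupled carnitine transporter on which fatty acid oxidation depends, read 83.6, 85.5 and 132 at day 0, 274, 209 and 155 at day 7, 249, 209.7 and 288 at day 14 and 174, 96.3 and 122 at day 21. Day 7 and day 14 lay above day 0 on every array, and day 21 overlapped day 0. It changed over the 4 ages (F test, limma adjusted p = 0.0454), while its first week's value of 1.08 ± 0.32 (adjusted p = 0.052) and its difference between weeks of 2.04 (adjusted p = 0.057) did not pass. The F test call ended in 16 settings, up to adjusted p = 0.286, among them the omission of any array except day 0 replicate 3, day 7 replicate 3 and day 21 replicate 1. Of the 3 day 0 arrays 2 lay under the filter's limit, while the mean log2 signal at day 0 lay above it. SLC27A1 (FATP1), which brings fatty acids into muscle, read 138, 282 and 478 at day 0, 66.2, 135 and 140.1 at day 7, 131, 214 and 138 at day 14 and 177, 157 and 98.1 at day 21. Its day 0 arrays spread widely, and its values of -1.30 ± 0.45 in the first week (adjusted p = 0.089) and -0.92 ± 0.45 over the 3 weeks (adjusted p = 0.202) did not pass. The mitochondrial carnitine carrier SLC25A20, which takes acylcarnitines into the matrix, differed by -0.03 ± 0.16 between day 0 and day 21, within signals of 1203 to 1869 over all 12 arrays.

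**Figure D3:**
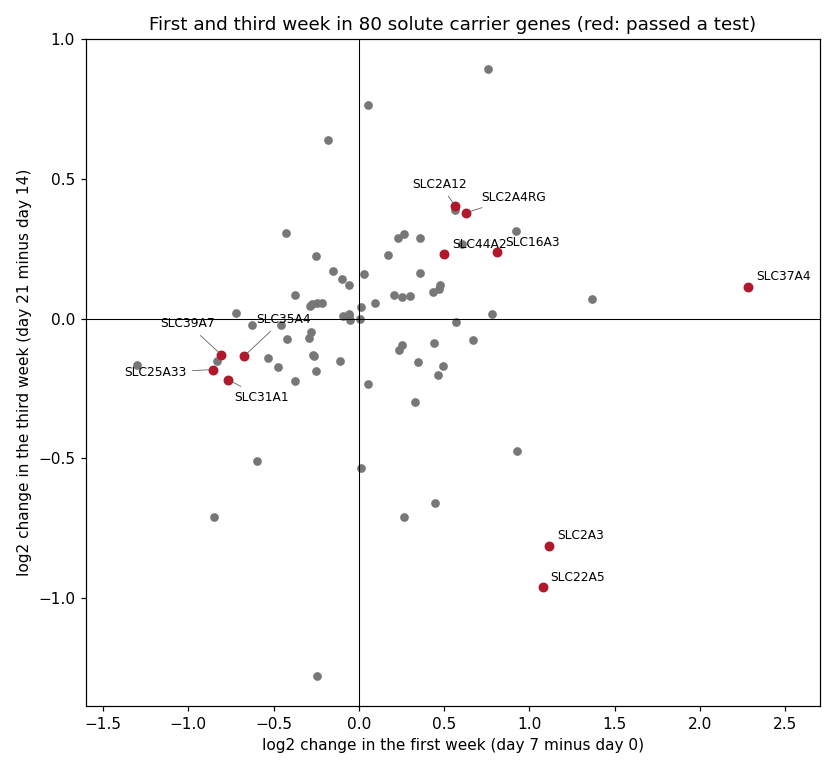
Log2 change in the first week (x axis, day 7 minus day 0) and in the third week (y axis, day 21 minus day 14) for the 80 tested solute carrier genes. The red points passed any test. SLC37A4 lies at 2.28 and 0.11, and SLC2A3 (1.12 and -0.81) and SLC22A5 (1.08 and -0.96) lie at the lower right.

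Among amino acid and peptide carriers, 0 of the 10 tested passed any test by limma after adjustment, and 4 had an unadjusted p under 0.05 between day 0 and day 21. Over all probe sets 8.88% passed the F test, and 6.61% rose and 4.9% fell over the 3 weeks. Whether the class differs from the array as a whole was not tested. Of the 10, 7 were lower and 3 higher at day 21, with a median of -0.46 beside 0.02 over all probe sets. SLC3A2 (4F2hc, CD98), the heavy chain shared by several amino acid exchangers, read 1873, 899 and 1006 at day 0, 921, 814 and 878 at day 7, 768, 822 and 633 at day 14 and 746, 682 and 751 at day 21. Day 21 lay below all day 0 arrays, and the value of -0.72 ± 0.24 did not pass (adjusted p = 0.0685). Day 0 replicate 1 stood apart from its group in that gene.

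SLC7A1 (CAT1), which imports arginine and lysine, read 2039, 252 and 730.2 at day 0 and 274, 417 and 153 at day 21. The day 0 arrays spread 8.08-fold and enclosed most of the later values, and the change of -1.47 ± 0.57 did not pass (limma adjusted p = 0.111). SLC1A5 (ASCT2), a glutamine transporter, ran from 546 to 968 over all arrays and differed by -0.40 ± 0.20 (adjusted p = 0.202). SLC3A1, the heavy chain of the cystine transporter known from kidney and gut, read 1434, 1486 and 1013 at day 0, 1736, 1556 and 1391 at day 7, 1509.8, 1294 and 1626 at day 14 and 837, 1165 and 746 at day 21. It was lower on every day 21 array than on every day 7 array, with a change of -0.79 and an unadjusted p of 0.00212 that did not pass adjustment. SLC38A1, a sodium-coupled glutamine transporter, differed by -1.15 between the same ages (unadjusted p = 0.0204). The remaining 9 members of the class, among them the peptide transporters SLC15A1 and SLC15A2 and the glutamate transporters SLC1A2 and SLC1A3, had means below the limit.

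Of 19 mitochondrial carriers tested, 1 fell (5.26%) and 0 rose between day 0 and day 21, beside 4.9% and 6.61% of all probe sets. In the F test 5.26% passed, beside 8.88% of all. Whether the class differs from the array as a whole was not tested. Of the 19, 11 were higher and 8 lower, with a median of 0.15. SLC25A33, which carries pyrimidine nucleotides into mitochondria and is known to be induced by growth signals, read 1648, 819.7 and 748 at day 0, 626, 622 and 436 at day 7, 378, 247 and 521 at day 14 and 276, 340.4 and 353 at day 21. All later arrays lay below all day 0 arrays, and all day 21 arrays lay below all day 7 arrays. It fell by 1.64 ± 0.32 over the 3 weeks on the log2 scale (limma adjusted p = 0.00675), a 3.12-fold change. The fall passed in all 23 alternative settings run for it (adjusted p from 0.00277 to 0.0319). A second, dim probe set of the gene had signals of 2.6 to 60.7. The mean of both lay below the filter's limit, so the setting that averages probe sets did not test the gene. The first week's value of -0.86 ± 0.32 did not pass (adjusted p = 0.113). The F test (adjusted p = 0.0191) was lost only with the poly-A ratio as a covariate (0.0596).

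The ADP/ATP carriers, which export ATP from the matrix in exchange for ADP, did not pass, and whether their probe sets tell these closely related genes apart was not examined. SLC25A4 (ANT1), the form of heart and skeletal muscle, read 26666, 26789 and 33807 at day 0 and 32108, 32069 and 33421 at day 21, a difference of 0.17 ± 0.12 (limma adjusted p = 0.387). SLC25A5 (ANT2), the form of dividing cells, read 1481, 1073 and 1893 at day 0 and 938, 1024 and 772 at day 21. Its day 21 arrays lay below day 0, and the value of -0.67 ± 0.24 did not pass (adjusted p = 0.0845). SLC25A6 (ANT3) differed by -0.30 ± 0.20 (adjusted p = 0.371).

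SLC25A3, the phosphate carrier that supplies ATP synthesis, ranged from 22830 to 34701 over the 12 arrays and differed by 0.15 ± 0.15. SLC25A12 (aralar), the aspartate-glutamate carrier of the malate-aspartate shuttle, differed by 0.09 ± 0.20. SLC25A11, the oxoglutarate carrier of the same shuttle, read 2558, 4236 and 7019 at day 0 and 2953, 2422 and 2616 at day 21. Its day 0 arrays spread widely, with replicate 3 far above the other 11 arrays, and the value of -0.67 ± 0.27 did not pass (adjusted p = 0.128). SLC25A24, a carrier of ATP-magnesium and phosphate, had 2 probe sets that differed in their calls. The one with the higher mean signal gave 0.36 ± 0.19 over the 3 weeks (limma adjusted p = 0.244), and the dimmer one rose by 1.60 ± 0.34 (adjusted p = 0.0109).

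**Figure D4:**
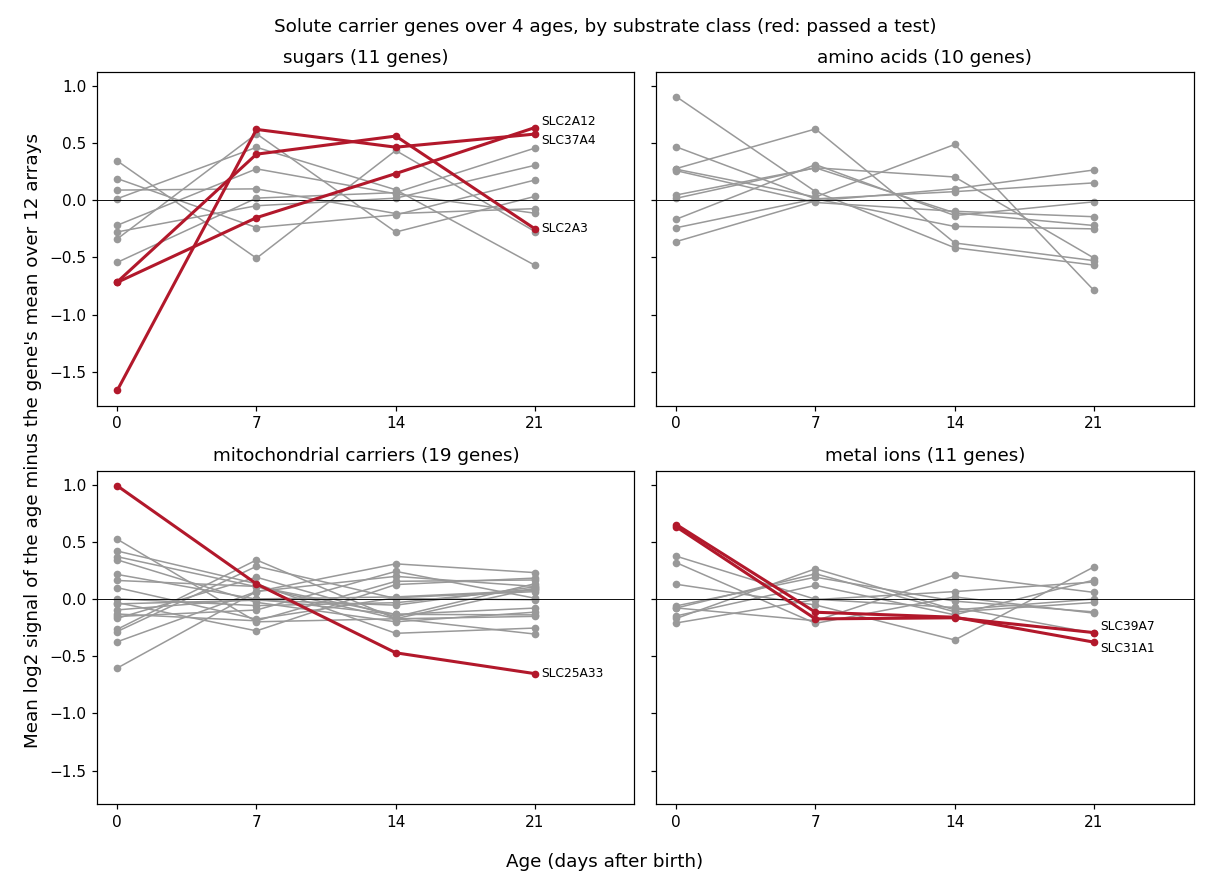
Mean log2 signal at each age minus the gene's mean over all 12 arrays (y axis) against age in days (x axis) for the tested genes of 4 classes, 1 line per gene. Red lines passed any test. SLC37A4 starts lowest among the 11 sugar carriers at day 0, SLC25A33 highest among the 19 mitochondrial carriers, and the 10 amino acid carriers hold no red line.

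Between day 0 and day 21, 2 of 11 metal ion carriers fell and 0 rose (18.2% and 0%), beside 4.9% and 6.61% of all probe sets. Of the 11, 6 were higher and 5 lower at day 21, with a median of 0.05. Whether the class differs from the array as a whole was not tested. SLC39A7 (ZIP7), which releases zinc from the endoplasmic reticulum and Golgi, read 708, 890.1 and 959.8 at day 0, 548, 424 and 488 at day 7, 627, 490.2 and 376 at day 14 and 411, 508 and 424 at day 21. All later arrays lay below all day 0 arrays, and the later ages overlapped. It fell by 0.81 ± 0.22 in the first week (limma adjusted p = 0.0362) and its change from day 0 to day 21 was -0.93 ± 0.22 (adjusted p = 0.0163). The day 21 call ended without day 21 replicate 1 or 3 (adjusted p = 0.0615 and 0.0597), with the poly-A ratio as a covariate (0.0637) and with only the arrays compared. The first week's call ended without day 0 replicate 2 or 3 or any single day 7 array (0.0668 to 0.126). The F test (adjusted p = 0.0408) was lost without day 0 replicate 2 or 3, any day 7 array, day 14 replicate 2, or day 21 replicate 1 or 3 (0.0554 to 0.144).

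SLC31A1 (CTR1), the copper importer of the cell surface, read 454, 512 and 562 at day 0, 379.5, 210.0 and 333 at day 7, 351, 294 and 235 at day 14 and 269, 292 and 196 at day 21. Every later array lay below day 0. The gene fell by 1.03 ± 0.26 over the 3 weeks on the log2 scale (limma adjusted p = 0.0222). The call ended without day 0 replicate 2 or day 21 replicate 1 or 3 (adjusted p from 0.0533 to 0.0937). It also ended with array weights and with the poly-A ratio as a covariate. A second, dim probe set of the gene had signals of 4.3 to 133.1, and with the mean of both in place of the brighter one the change was 0.05 (adjusted p = 0.97). Its relative SLC31A2 differed by 0.15 ± 0.31.

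The other metal carriers did not pass a test. SLC39A1 (ZIP1), a zinc importer, differed by 0.17 ± 0.27 between day 0 and day 21, SLC39A14 (ZIP14), which takes up zinc and iron, by 0.31 ± 0.31, and the magnesium transporter SLC41A1 by 0.05 ± 0.22. SLC30A5, which loads zinc into the secretory pathway, was lower at day 21 on every array than at day 0, with a change of -0.67 ± 0.26 (adjusted p = 0.109).

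Among carriers of nucleosides and nucleotide sugars, 1 of 10 fell and 0 rose over the 3 weeks, beside 4.9% and 6.61% of all probe sets. SLC35A4, a Golgi protein of the nucleotide sugar transporter family, read 1401, 979 and 1524 at day 0, 1001, 715 and 718 at day 7, 782, 853 and 544 at day 14 and 749.6, 566 and 646 at day 21. Day 21 lay below all day 0 arrays, while day 7 replicate 1 lay inside the day 0 range. It fell by 0.98 ± 0.23 on the log2 scale (limma adjusted p = 0.0179), and its second probe set fell by 0.79 ± 0.23 (adjusted p = 0.0436). The call ended without day 21 replicate 2 or 3 (adjusted p = 0.0573 and 0.0581) and with only the arrays of both ages in the fit (0.0531).

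SLC35F5, of the same family, read 901, 934 and 872 at day 0 and 1782, 1420.4 and 1299.8 at day 21. The day 21 arrays lay above day 0, and the value of 0.72 ± 0.23 did not pass (limma adjusted p = 0.0599), while a dimmer probe set of the gene rose by 1.01 ± 0.22 (adjusted p = 0.0125). SLC35B1, a nucleotide carrier of the endoplasmic reticulum, ran from 1103 to 1906 over all arrays and differed by -0.14 ± 0.20. SLC29A1 (ENT1), the nucleoside and adenosine transporter, differed by -0.18 ± 0.32.

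In the class of amines and choline-like substrates, the single tested member rose. SLC44A2, a choline transporter-like protein, read 273, 698 and 722 at day 0, 673, 711 and 814 at day 7, 730.0, 1075 and 949 at day 14 and 1196, 958 and 1049 at day 21. Day 21 lay above all day 0 arrays, and day 0 replicate 1 lay far below the other 11. The rise of 1.04 ± 0.31 passed (limma adjusted p = 0.0452) but held in only 7 of 24 settings, the omission of each array except day 0 replicates 2 and 3 ending it. Without day 0 replicate 1 it was 0.58 (adjusted p = 0.0833), and the highest adjusted p was 0.135 without day 21 replicate 1. Of the gene's other probe sets 1 rose by 1.14 ± 0.33 (adjusted p = 0.0394) and 1 gave 0.65 ± 0.32 (adjusted p = 0.204).

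SLC2A4RG, a transcription factor named for its binding to a glucose transporter's promoter, read 478, 458 and 823 at day 0, 912, 729 and 1005 at day 7, 772, 1204 and 656 at day 14 and 1066, 1091 and 1153 at day 21. Day 21 lay above all day 0 arrays, and day 0 replicate 3 overlapped days 7 and 14. It rose by 0.96 ± 0.26 (limma adjusted p = 0.0304). The call ended without day 0 replicate 1 or 2 or any single day 21 array (adjusted p from 0.065 to 0.0997) and when scaled on the hybridization controls (0.58, adjusted p = 0.118). Array weights, the poly-A ratio as a covariate and only the arrays compared ended it as well. The scaffold proteins SLC9A3R1 and SLC9A3R2 differed by -0.38 ± 0.38 and -0.60 ± 0.23 (adjusted p = 0.554 and 0.102).

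Inorganic ion carriers had 0 of 5 tested members called by limma after adjustment in any comparison, with 1 at an unadjusted p under 0.05 between day 0 and day 21. Over all probe sets 8.88% passed the F test, and 6.61% rose and 4.9% fell over the 3 weeks. SLC4A4, a sodium-bicarbonate cotransporter, read 76.8, 43.1 and 19.6 at day 0, 185, 167 and 36.1 at day 7, 162, 159.6 and 112 at day 14 and 192, 115 and 151 at day 21. Its day 21 arrays lay above day 0, and the value of 1.90 ± 0.62 did not pass (adjusted p = 0.064). It was dim at day 0, so it reached the tested set through its later values. SLC26A6, an exchanger of chloride, bicarbonate and oxalate, was higher on all 9 later arrays (146 to 397) than at day 0 (86 to 142), and its day 21 value of 0.79 ± 0.37 did not pass either (adjusted p = 0.185). SLC12A4 (KCC1), a potassium-chloride cotransporter, differed by -0.61 ± 0.43. SLC8A1, the sodium-calcium exchanger of heart, had signals of 3.1 to 57.4 and lay below the limit.

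Carriers of vitamins and of organic ions gave no call by limma between day 0 and day 21, with 0 of 4 and 0 of 3 at an unadjusted p under 0.05. Over all probe sets 6.61% rose and 4.9% fell in this comparison. SLC5A6, which imports biotin and pantothenate, differed by -0.38 ± 0.28, and SLC22A3 and SLC22A6, transporters of organic cations and anions, by 0.15 ± 0.52 and -0.39 ± 0.43. SLC33A1, which takes acetyl-CoA into the endoplasmic reticulum, gave -0.23 ± 0.23 with its brightest probe set (adjusted p = 0.565), and a dimmer one fell by 1.56 ± 0.36 (adjusted p = 0.0163). Over all classes 20 members had more than 1 tested probe set. None of these was called in opposite directions by limma, and SLC25A24, SLC33A1 and SLC35F5 were called only by a dimmer one.

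After day 7 no carrier passed in a single step. From day 7 to day 14, 0 of 80 were called by limma (4 at an unadjusted p under 0.05), and over all probe sets 0% rose and 0.00694% fell. From day 14 to day 21 again 0 were called (3 at an unadjusted p under 0.05), beside 0% higher and 0% lower over all. Between day 7 and day 21, a comparison with no day 0 array in it, 0 were called (9 at an unadjusted p under 0.05), beside 0% higher and 0.00694% lower. Among the 9 were SLC25A33 (-0.78), SLC2A12 (0.79), SLC2A3 (-0.65) and SLC22A5 (-0.71), none of which survived adjustment in limma.

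Arrays differed in how often they held a carrier's most extreme value. Day 0 replicate 3 held the highest of the 12 signals for 18 of the 80 carriers (22.5%), and for 9.68% of all probe sets tested. Among them were the mitochondrial carriers SLC25A1, SLC25A3, SLC25A4, SLC25A5, SLC25A11, SLC25A12 and SLC25A20. Day 0 replicate 1 held the lowest signal for 18 (22.5%, beside 16.3% of all). The median ratio of the highest to the lowest array within an age was 1.65 at day 0, 1.37 at day 7, 1.62 at day 14 and 1.49 at day 21. The widest was that of SLC35C2, of the nucleotide sugar family, at day 0, from 9.4 to 286.8.

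Genes that work with the carriers gave a mixed picture. Of 6 tested genes of the Na,K-ATPase, 1 rose and 1 fell between day 0 and day 21, beside 6.61% and 4.9% of all probe sets. This pump maintains the sodium gradient many carriers use. ATP1B1, a beta subunit, read 17602, 21820.2 and 20852 at day 0 and 10240.2, 13446 and 14214 at day 21, with no overlap, and fell by 0.68 ± 0.15 on the log2 scale (limma adjusted p = 0.0145). FXYD7, a small regulator of the pump, rose by 0.58 ± 0.13 (adjusted p = 0.016). Among 9 tested chaperones and regulators of carriers the lowest F test adjusted p was that of BSG (0.0599).

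Of 10 mitochondrial transport proteins outside the SLC25 symbols, 1 rose and 2 fell over the 3 weeks, beside 6.61% and 4.9% of all probe sets. UCP3, the uncoupling protein of muscle, read 309, 356 and 251 at day 0, 759, 676 and 698 at day 7, 1108, 1057 and 1186 at day 14 and 1295, 622 and 1256 at day 21, with every later array above day 0. It rose by 1.73 ± 0.25 (limma adjusted p = 0.00159). LETM1, which takes part in potassium and calcium exchange, fell by 0.90 ± 0.25 (adjusted p = 0.0324), and SFXN4, a sideroflexin, by 0.92 ± 0.20 (adjusted p = 0.0114). MPC2, a subunit of the pyruvate carrier, fell by 0.49 ± 0.13 in the first week (adjusted p = 0.0314).

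Of 11 other transporters tested, AQP3 was the only one called. Over all probe sets 8.88% changed in the F test and 5.76% rose in the first week. AQP3, a channel for water and glycerol, read 297, 77.3 and 81.4 at day 0, 1215, 986 and 603 at day 7, 220.1, 438 and 363 at day 14 and 273, 250.2 and 477 at day 21. It was highest on the day 7 arrays, and day 0 replicate 1 overlapped days 14 and 21. It rose by 2.86 ± 0.48 in the first week (limma adjusted p = 0.00421), and its day 21 value of 1.37 ± 0.48 did not pass (adjusted p = 0.0784). Of 9 genes of amino acid response and synthesis, 2 rose and 1 fell over the 3 weeks, beside 6.61% and 4.9% of all probe sets. ATF4, a transcription factor known to drive amino acid transporter genes, read 10103, 3933 and 4218 at day 0, 11935, 7458 and 7798 at day 7, 12125, 13027 and 14688 at day 14 and 15278, 14746 and 16974 at day 21. Day 0 replicate 1 lay within the day 7 range, and day 21 lay above all day 0 and day 7 arrays. ATF4 rose by 1.50 ± 0.29 (adjusted p = 0.00663). VLDLR rose by 0.75 ± 0.22 (adjusted p = 0.0436), MTHFD2, a mitochondrial folate enzyme, fell by 0.86 ± 0.24 (adjusted p = 0.0315), and PSPH, the last enzyme of serine synthesis, rose by 2.14 ± 0.43 in the first week (adjusted p = 0.0101).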

How the data were processed

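Gene expression was measured on 12 Affymetrix arrays of pig skeletal muscle, 3 per age. The authors deposited 1 linear intensity signal for each probe set and array. MAS5 is the tool the submitters' processing notes name, without a version, and the genome build is not given in the sources used here. These signals were log2-transformed and not normalized again. Of 24123 probe sets, 124 controls and the lowest 40% of the others by mean log2 signal were left out, which left 14399. The model, a mean per age, was run in R 4.3.3 with limma 3.58.1, eBayes and a variance trend, and p-values were Benjamini-Hochberg adjusted over all probe sets tested.

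Gene symbols came from the platform annotation. Of the 118 members 116 matched a current Entrez entry, which changed 0 symbols, and 5 SLC probe sets with several symbols were left out. Signals of different probe sets are not set against each other. The members, lists and tests were chosen with earlier results of these data known. Genes named are all members that passed a test, the 2 others per class with the highest mean signal, a set always followed (25 genes, of which 10 carry no symbol), up to 4 of each partner list in order of the F test p, and further members named after their values were seen.

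Alternatives were no filter, a filter of 60%, quantile normalization, median centring, array weights, scaling on the 27 hybridization control probe sets, a pseudocount of 29.7, a block for the replicate number, eBayes without the trend, a covariate for the poly-A spike ratio, only the arrays compared, all of a gene's probe sets averaged, and leaving out each array. The fits were tested on simulated data. Replicate numbers were not treated as pairs, and the labels do not say whether they are. Deviations of same-numbered arrays correlated at -0.198 to 0.112 (median -0.017, 18 pairs), and of others at -0.185 to 0.236. These values cannot show that no pairing exists. Figures were drawn with matplotlib 3.10.9.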

Additional observations from a re-analysis of the deposited data

Results flagged for a closer look

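SLC2A3, the glucose transporter GLUT3, changed differently in the first week (day 0 to day 7) and in the last (day 14 to day 21), and the first minus the last was 1.93 (limma adjusted p = 0.0488). It was picked out because this difference between weeks was itself tested. The signals were high at days 7 and 14 and overlapped between day 0 and day 21. The call passed in 4 of 23 alternative settings, where its direction was the same in all 23, with values of 1.64 to 2.25. No explanation was tested.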

How the results depend on the processing

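In the F test over the 4 ages 6 carriers passed; the count was 2 with no filter, 3 without the variance trend, 3 with array weights, 2 with the replicate number as a block and 0 with the poly-A ratio as a covariate, and 2 to 7 when single arrays were left out (2 without day 7 replicate 2). In the first week 3 passed; the count was 5 with median centring, 8 when scaled on the hybridization controls, 0 with the poly-A covariate, 1 with only the arrays compared, and 1 to 6 when single arrays were left out (1 without day 0 replicate 2 or day 7 replicate 2, 6 without day 0 replicate 3). Between day 0 and day 21, 9 passed; the count was 17 when scaled on the hybridization controls, 5 with array weights, 4 with only the arrays compared, and 2 to 12 when single arrays were left out (4 without day 21 replicate 1, 2 without day 21 replicate 3). The difference between weeks had 1 call. It had 0 with no filter, quantile normalization, median centring, scaling on the hybridization controls, no variance trend, array weights, the replicate block, the poly-A covariate and averaging each gene's probe sets, and 0 to 3 when single arrays were left out (3 without day 0 replicate 3). The replicate block gave 2 calls in the first week and 10 between day 0 and day 21. The steps from day 7 to 14, 14 to 21 and 7 to 21 had 0 calls in every setting run. Calls over all probe sets can move with the setting too, as given above for the hybridization controls, and are not set beside these counts. Whether the shifts are particular to the carriers was not tested. The change of SLC31A1 between day 0 and day 21 turned to 0.0459 with the mean of its probe sets, one of which is dim; the cause of the other shifts was not tested. With 3 arrays per age, and with carriers below the filter's limit left untested, small changes could be missed.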
